A study of Mus musculus with 13 samples.

Results

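A set of 8 lipase genes forms the subject of these results: Pla2g4a, Pla2g6, Pla2g7, Pla2g15, Dagla, Mgll, Abhd6 and Faah. They were chosen by name, as enzymes that handle arachidonic acid in phospholipids or endocannabinoids, and all 8 were found among the 56980 genes of the deposited count table. Bulk RNA was sequenced from 13 hippocampus samples of male App NL-G-F mice, 9 months old, in which a humanised App gene bears mutations of familial Alzheimer's disease. Each sample had floxed Lpcat3 (Lpcat3 f/f). The knockout group of 7 also carried vav1-CRE, a recombinase gene under a promoter of the blood-forming lineage, whose activity extends to microglia, and the control group of 6, called WT in the labels, did not. The labels give tamoxifen by gavage (20 mg/ml, 0.2 mg per g body weight) for every sample. They do not tie samples to separate animals, and p-values therefore measure only how far these samples spread. Only part of the RNA of whole hippocampus comes from cells in which this Cre acts.

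Arachidonic acid is stored in cell membranes on phospholipids, where Lpcat3 helps to place it. Phospholipases A2 cut fatty acids from phospholipids: Pla2g4a encodes the calcium-dependent cytosolic enzyme with a preference for arachidonic acid, Pla2g6 the calcium-independent enzyme, Pla2g15 the lysosomal enzyme, and Pla2g7 the platelet-activating factor acetylhydrolase, which acts on short-chain and oxidised phospholipids. In the brain a second supply runs through endocannabinoids, lipid messengers by which neurons tune their synaptic inputs. Dagla makes the endocannabinoid 2-arachidonoylglycerol from diacylglycerol, Mgll and Abhd6 hydrolyse it to arachidonic acid and glycerol, and Faah hydrolyses anandamide, the other main endocannabinoid. Dagla is thus a synthetic enzyme in this group, and Pla2g7 is not chiefly known for release of arachidonic acid.

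The libraries held 12159941 to 18322559 counted reads. Lpcat3, the targeted gene, was lower in every knockout (17.27 to 24.35 CPM) than in any control (24.73 to 30.27 CPM), where CPM is the read count scaled to library size with TMM factors. On the log2 scale the difference was -0.45 (SE 0.088); the adjusted p was 0.096 by quasi-likelihood in edgeR, and DESeq2 gave 0.0020. Of 100 marker genes of hippocampal and neighbouring cell types, 98 were detected in every library; the exceptions were the cholinergic genes Chat and Slc18a3. The sample numbers in the labels fall into 3 runs whose meaning is not stated: 3283 to 3288 with 5 knockouts and 1 control, 3296 to 3300 with 1 knockout and 3 controls, and 4301 to 4307 with 1 knockout and 2 controls. Where differences within runs are given, they stand in that order, as mean log2 CPM of knockouts minus controls. Replicate numbers in the text count the samples of each group in the order of these sample numbers and pair no samples between the groups.

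No lipase gene passed the threshold in the comparison of knockout with control hippocampus. Of the 8 genes, 0 had an adjusted p under 0.05 in edgeR, where 0.0228% of the 17549 genes tested did (0.0171% higher, 0.0057% lower in knockouts). In DESeq2 0 of the 8 did, where 1.42% of the 12785 genes given an adjusted p did. Of the 8, 1 gene, Faah, higher in knockouts, had an unadjusted p under 0.05 in edgeR, against 12.5% of all genes (5.23% higher, 7.25% lower). Without control replicate 1 Pla2g15 also did (0.048), and Mgll did in 4 of 24 alternatives. In none of the 8 were the groups free of overlap, against 0.444% of all genes. The log2 fold changes ran from -0.12 for Mgll to 0.11 for Faah, with 6 of 8 positive, against 48.7% of all genes. Their median size without regard to sign was 0.08, and that of all genes 0.09. All 8 had a mean of at least 5 CPM, as did 12257 of the 17549 genes tested, and genes of like abundance were not compared separately. Because whole hippocampus was sequenced, fewer cells of a type and less RNA per cell cannot be told apart for any of these genes.

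**Figure D1:**
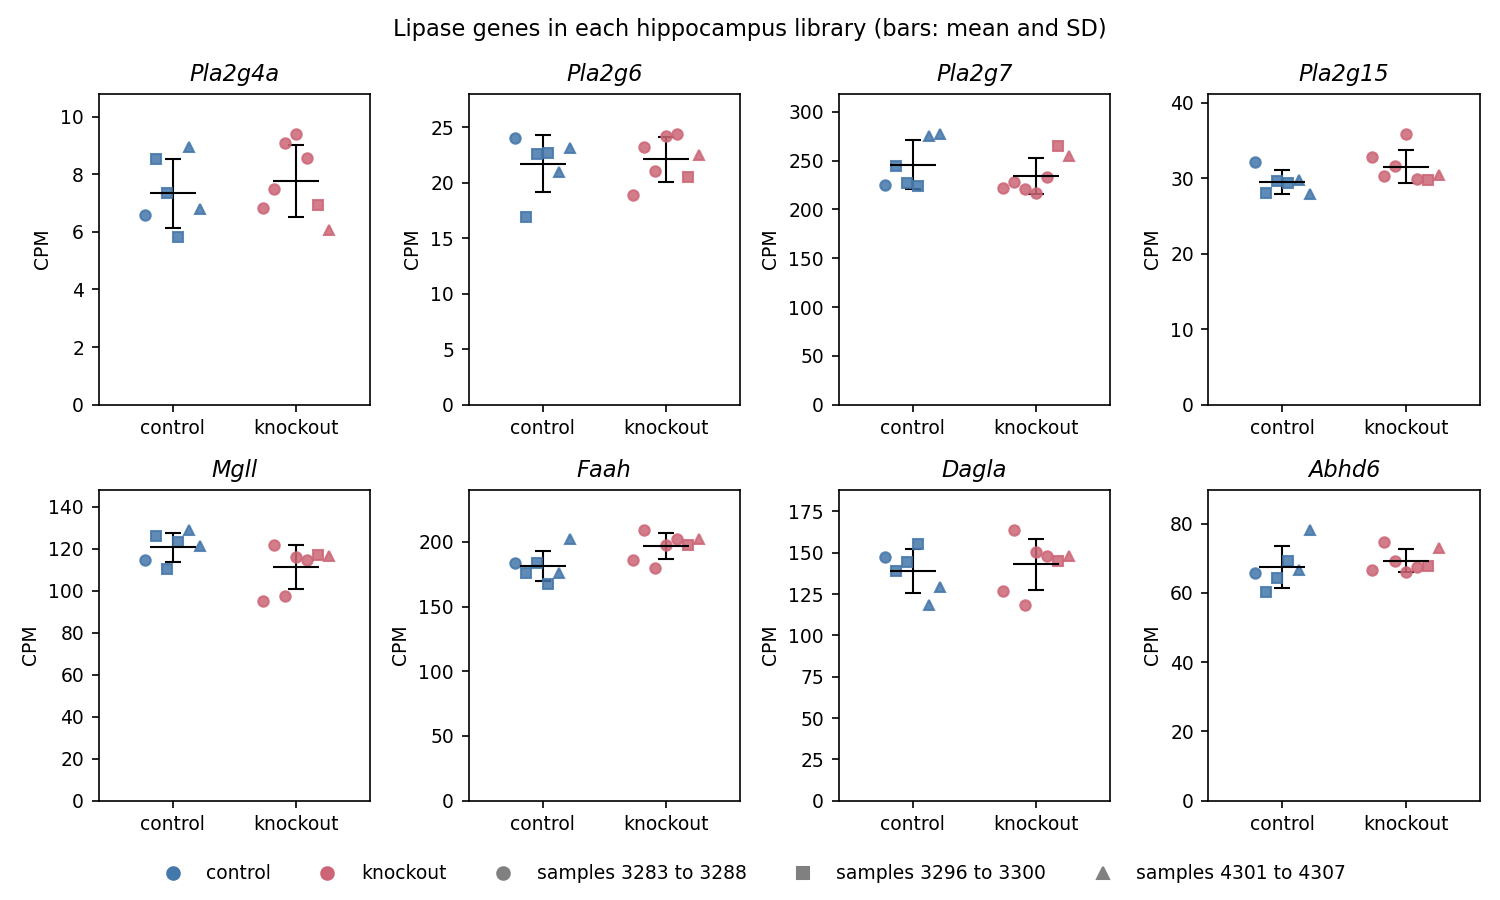
CPM of each lipase gene in every library, with controls in blue and knockouts in red, the marker shape giving the run of sample numbers, and black bars giving the mean and SD of each group. In every panel the groups overlap; for Faah 3 of 7 knockouts lie above every control, and for Mgll 3 of 6 controls lie above every knockout.

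Levels between genes can be compared only per length, here as CPM per kilobase of exons over the 13 libraries. Pla2g7 was the most abundant at 82.4 ± 7.39 (SD, n = 13). Abhd6 followed at 28.9 ± 1.97, Dagla at 24.6 ± 2.44, Faah at 24.2 ± 1.66 and Mgll at 22.8 ± 1.97 (SD, n = 13 each), so that the gene for the enzyme that makes 2-arachidonoylglycerol and those for enzymes that break down endocannabinoids stood close together. Pla2g15 was at 10.2 ± 0.706, Pla2g6 at 4.04 ± 0.405 and Pla2g4a at 1.18 ± 0.188 (SD, n = 13 each). The ranges of Abhd6, Dagla, Faah and Mgll overlapped between neighbours, and Dagla exceeded Faah in 6 of 13 libraries, so these 2 were not ordered. The other steps, from Pla2g7 to Abhd6 and from Mgll down to Pla2g4a, held in 13 of 13 libraries without overlap. With the longest transcript in place of the union of exons, an alternative chosen after seeing the data, Faah (34.3) exceeded Dagla (25.1) in all 13 libraries, and the steps outside these 4 genes held.

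**Figure D2:**
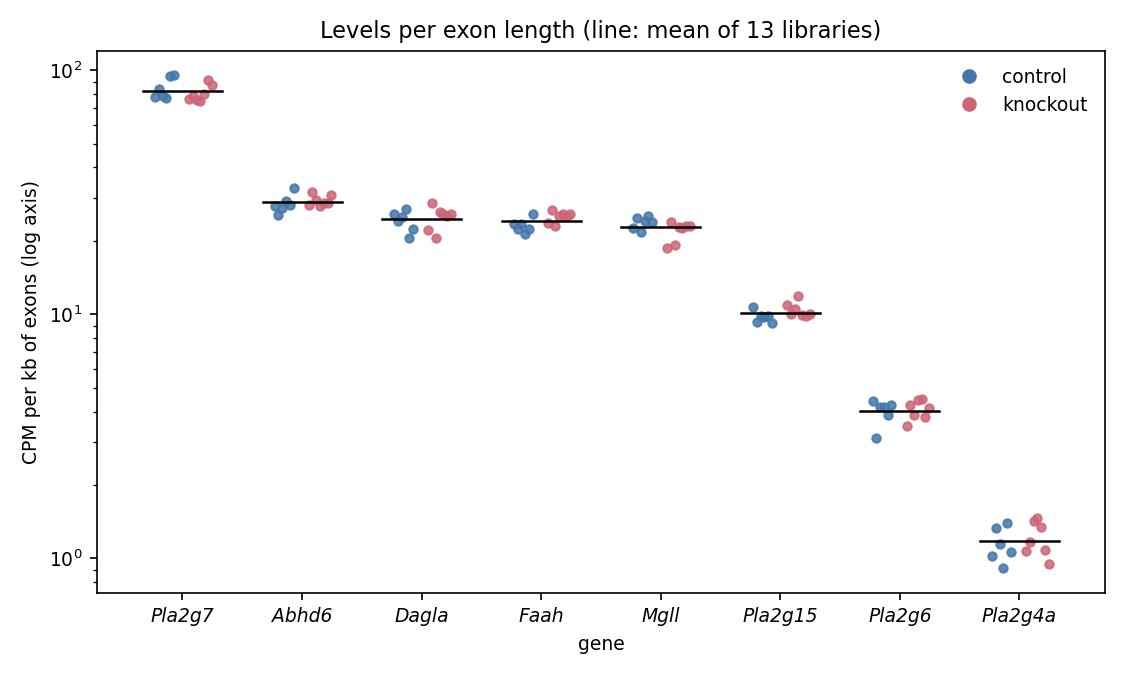
CPM per kilobase of exons on a log axis for the 8 lipase genes in order of their mean, one point per library (controls blue, knockouts red), with a black line at the mean of the 13 libraries. Pla2g7 stands above the rest at 82.4, the 4 endocannabinoid genes lie between 22.8 and 28.9, and Pla2g4a is the lowest at 1.18.

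Among the phospholipases A2, Pla2g4a (ENSMUSG00000056220, chromosome 1), the gene whose enzyme is best known for releasing arachidonic acid, was counted by only 71 to 170 reads per library. In controls it had a lowest, median and highest value of 5.83, 7.06 and 8.95 CPM, and in knockouts of 6.08, 7.48 and 9.39 CPM. The groups covered nearly the same range, and the 2 knockouts above every control, replicates 3 and 4, belong to the first run. Pla2g4a had a log2 fold change of 0.09 (SE 0.13, 95% confidence interval -0.18 to 0.35, adjusted p = 0.83 in edgeR). Within the runs Pla2g4a differed by 0.32, -0.04 and -0.35, so the sign was not the same in all of them, and with the runs as a term the value was -0.01.

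Pla2g6 (ENSMUSG00000042632, chromosome 15) had 16.9, 22.6 and 24.0 CPM as lowest, median and highest control and 18.9, 22.5 and 24.4 CPM as lowest, median and highest knockout. The medians lay together, and 1 control, replicate 2, was below all other libraries. The log2 fold change was 0.03 (SE 0.086, 95% confidence interval -0.15 to 0.21, adjusted p = 0.94 in edgeR); without control replicate 2 it was -0.03. Within the runs Pla2g6 differed by -0.11, 0.00 and 0.03.

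Pla2g7 (ENSMUSG00000023913, chromosome 17) had 224, 236 and 277 CPM as lowest, median and highest control and 217, 228 and 265 CPM as lowest, median and highest knockout. The 2 controls of the last run were above every knockout, and 3 knockouts of the first run were below every control. The log2 fold change was -0.07 (SE 0.063, 95% confidence interval -0.20 to 0.06, adjusted p = 0.71 in edgeR). Pla2g7 followed the runs more than the groups: its mean was 224 CPM in the first, 240 CPM in the second and 269 CPM in the third, and the knockouts differed from the controls of the same run by -0.01, 0.19 and -0.12. With the runs as a term the value was 0.03, and with samples 4301 to 4307 left out it was 0.01. Of the 2905 exonic bases of Pla2g7, 319 are shared with the antisense gene 1700071M16Rik, which had 25 to 69 reads per library, against 2692 to 4503 for Pla2g7; the strand setting of the counting is not given in the sources used here.

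Pla2g15 (ENSMUSG00000031903, chromosome 8), whose enzyme breaks down phospholipids in lysosomes, had 27.9, 29.5 and 32.2 CPM as lowest, median and highest control and 29.8, 30.4 and 35.9 CPM as lowest, median and highest knockout. All 7 knockouts were above the control median, and 4 of 6 controls were below every knockout. The log2 fold change was 0.10 (SE 0.060, 95% confidence interval -0.03 to 0.22, adjusted p = 0.54 in edgeR), and the exact two-sided permutation p was 0.070. Within the runs Pla2g15 differed by -0.01, 0.04 and 0.07, and with the runs as a term the value was 0.03.

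Of the endocannabinoid genes, Dagla (ENSMUSG00000035735, chromosome 19) had 118.5, 141.6 and 155.4 CPM as lowest, median and highest control and 118.2, 147.9 and 163.7 CPM as lowest, median and highest knockout. The ranges overlapped throughout, with knockout replicate 2 above and knockout replicate 3 just below every control. Its log2 fold change was 0.04 (SE 0.072, 95% confidence interval -0.11 to 0.19, adjusted p = 0.86 in edgeR), and within the runs Dagla differed by -0.07, -0.01 and 0.26. Without samples 4301 to 4307 the log2 fold change of Dagla was -0.04.

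Abhd6 (ENSMUSG00000025277, chromosome 14), which hydrolyses part of the 2-arachidonoylglycerol on the postsynaptic side, varied little, with 60.3, 66.2 and 78.2 CPM as lowest, median and highest control and 65.9, 67.9 and 74.8 CPM as lowest, median and highest knockout. The knockouts lay inside the range of the controls. For Abhd6 the log2 fold change was 0.04 (SE 0.055, 95% confidence interval -0.08 to 0.16, adjusted p = 0.82 in edgeR), with differences within the runs of 0.06, 0.07 and 0.02.

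Mgll (ENSMUSG00000033174, chromosome 6), the main hydrolase of 2-arachidonoylglycerol in brain, had 110, 122 and 129 CPM as lowest, median and highest control and 94.97, 116.1 and 121.6 CPM as lowest, median and highest knockout. All 7 knockouts were below the control median, and 2 of them, replicates 1 and 3, were below every control. For Mgll this gave a log2 fold change of -0.12 (SE 0.060, 95% confidence interval -0.24 to 0.01, adjusted p = 0.44 in edgeR), with an exact two-sided permutation p of 0.106. Within the runs Mgll differed by -0.08, -0.03 and -0.10. The antisense gene Gm26588 shares 167 of its 5077 exonic bases and had 33 to 64 reads per library, against 1152 to 2102 for Mgll.

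Faah (ENSMUSG00000034171, chromosome 4), the anandamide hydrolase, had 168, 180 and 202 CPM as lowest, median and highest control and 180, 198 and 209 CPM as lowest, median and highest knockout. All 7 knockouts were above the control median, and 3 of 6 controls were below every knockout, while control replicate 6 stood among the higher knockouts. The log2 fold change was 0.11 (SE 0.047, 95% confidence interval 0.02 to 0.21), an unadjusted p of 0.026 and an adjusted p of 0.32 in edgeR, with an exact two-sided permutation p of 0.033. Faah differed by 0.08, 0.17 and 0.10 within the runs. The unadjusted p was under 0.05 in 22 of 24 alternatives; the other 2 were the omission of control replicate 4 (0.053) and the septum score as a covariate (0.71).

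**Figure D3:**
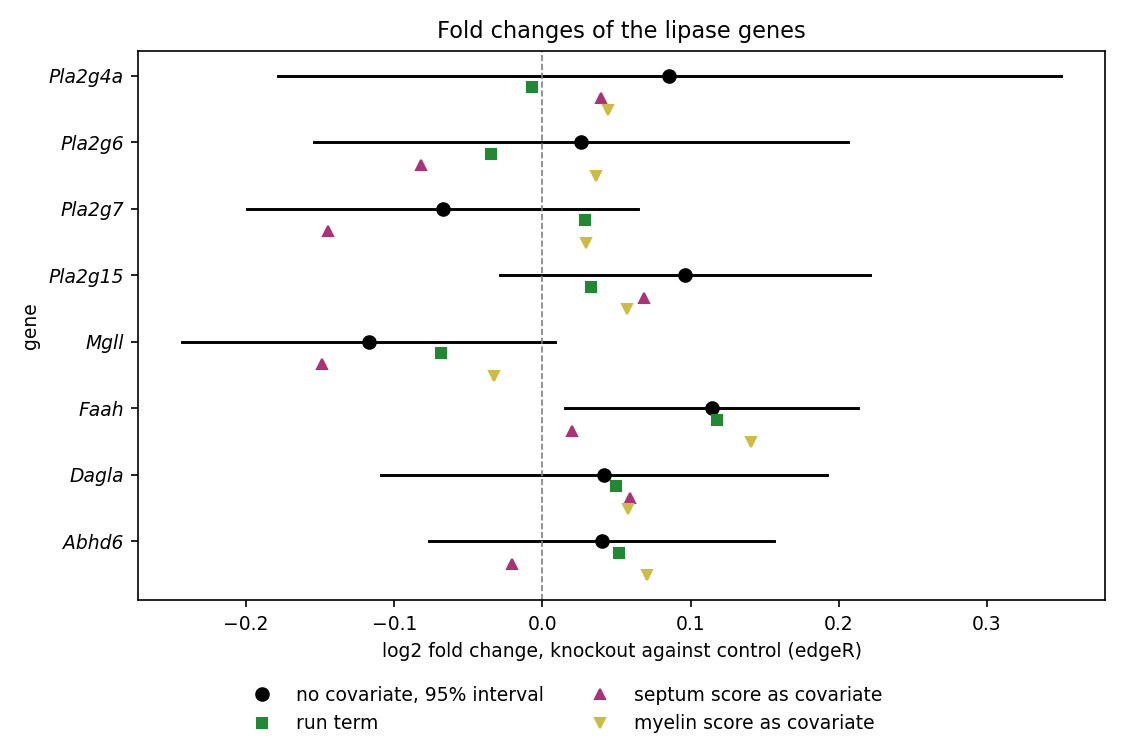
Log2 fold change of each lipase gene, knockout against control, with its 95% confidence interval (black), and the value with the runs of sample numbers (green squares), the septum score (purple triangles) or the myelin score (yellow triangles) in the model. Only the Faah interval, 0.02 to 0.21, leaves out 0, and the Faah value moves to 0.02 with the septum score.

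Mean log2 CPM of marker genes was compared for 10 cell types or regions, to set beside the lipase genes, with p-values adjusted over the 10. Markers of the septum, a region next to the hippocampus, averaged 3.73 ± 0.44 over 8 tested genes across controls (SD, n = 6) against 3.23 ± 0.17 across knockouts (SD, n = 7), with an exact two-sided permutation p of 0.0087 (adjusted 0.029). Within the runs the septum score differed by -0.14, -0.91 and -0.16, so that the difference was largest in the run with 3 of the 6 controls. Of the 8, 0 passed the threshold in edgeR, and 7 had a negative and 1 a positive log2 fold change. The 10 listed genes summed to 394 to 545 CPM in controls and 433 to 492 CPM in knockouts, and Chat and Slc18a3 were below the count filter. Most of these sums was Dgkg, with means of 368.5 CPM in controls and 377.0 CPM in knockouts. The less abundant Zic1 had 12.6 and 5.21 CPM. With the septum score as a covariate the log2 fold change of Faah was 0.02 and that of Pla2g7 was -0.14. Myelin genes averaged 7.81 ± 0.11 across controls (SD, n = 6) against 7.67 ± 0.13 across knockouts (SD, n = 7), with an exact two-sided permutation p of 0.071 (adjusted 0.14). Within the runs the myelin score differed by -0.01, -0.10 and 0.02, while its means over the runs were 7.61, 7.79 and 7.90. Of the myelin genes, 0 of 10 were past the threshold and none at 0, with sums of 6190 to 7866 CPM in controls and 5908 to 7799 CPM in knockouts. With the myelin score as a covariate Mgll was at -0.03 and Pla2g7 at 0.03, while Faah was at 0.14.

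Striatum genes were lower in knockouts by 0.29 in mean log2 CPM (exact two-sided permutation p = 0.0082, adjusted 0.029; within runs -0.04, -0.33 and -0.32), with 0 of 10 past the threshold, none at 0, and sums of 166 to 222 CPM in controls and 150 to 203 CPM in knockouts. Genes of plaque-associated microglia were lower by 0.29 (exact two-sided permutation p = 0.0017, adjusted 0.017; within runs -0.21, -0.08 and -0.41), with 0 of 10 past the threshold, none at 0, and sums of 309 to 413 CPM against 282 to 330 CPM. Astrocyte genes differed by -0.05 (exact two-sided permutation p = 0.044, adjusted 0.11; within runs -0.02, -0.07 and 0.01), with 0 of 10 past the threshold, none at 0, and sums of 5715 to 6283 CPM in controls and 5561 to 6181 CPM in knockouts. Homeostatic microglial genes were at 5.96 ± 0.07 across controls (SD, n = 6) against 5.94 ± 0.1 across knockouts (SD, n = 7). The other four lists had exact two-sided permutation p-values of 0.13 to 0.78 before adjustment.

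Faah and Mgll, the hydrolases of the 2 main endocannabinoids, had log2 fold changes of opposite sign, and the groups did not overlap in their ratio. Faah to Mgll, per exon length, had a lowest, median and highest value of 0.883, 0.972 and 1.08 in controls and of 1.10, 1.12 and 1.27 in knockouts. Every knockout was above every control, although the highest control (1.082) and the lowest knockout (1.098) lay close together. Controls averaged 0.979 ± 0.0983 (SD, n = 6) and knockouts 1.151 ± 0.0628 (SD, n = 7), which is 0.24 on the log2 scale. This pair was singled out after its values were seen, as the only 1 of the 28 pairs of the 8 genes (3.57%) whose ratio did not overlap, and is given without a test; among 75110896 pairs of genes with a mean of at least 5 CPM the share was 0.713%. A ratio within a library does not depend on the scaling of libraries. Within the runs the ratio differed by 0.17, 0.21 and 0.20, where in each run 1 of the groups has only 1 library. The difference lay between 0.21 and 0.27 with any 1 library left out, and was 0.19 with the runs as a term, 0.18 with the myelin score and 0.17 with the septum score as a covariate. The pair was picked from these same libraries, so its kept size is no independent check.

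**Figure D4:**
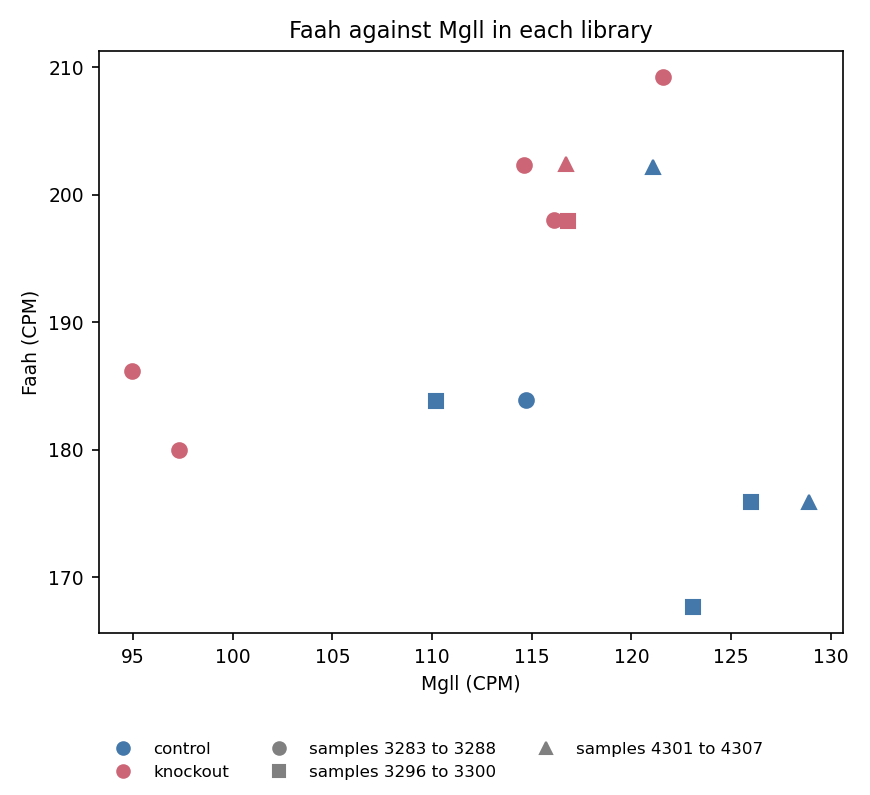
Faah against Mgll in CPM, one point per library, with controls in blue, knockouts in red and the marker shape giving the run; neither axis starts at 0. The groups overlap on each axis alone. Their Faah to Mgll ratio, per exon length, did not overlap, at 1.10 to 1.27 in knockouts against 0.883 to 1.08 in controls.

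The 250 bases before the RefSeq start of the genes of this pair (build GRCm38.p6, not the GRCm39 named for the counts) are shown because their log2 fold changes lay farthest apart among the 8 genes. Faah lies on the minus strand, with its window at chr4:116017925-116018174, and Mgll on the plus strand, with the window before the most upstream of its 2 starts at chr6:88724162-88724411. Capitals mark the GC box GGGCGG, which binds Sp1-type factors, and the E-box CACGTG, each on either strand.
Faah: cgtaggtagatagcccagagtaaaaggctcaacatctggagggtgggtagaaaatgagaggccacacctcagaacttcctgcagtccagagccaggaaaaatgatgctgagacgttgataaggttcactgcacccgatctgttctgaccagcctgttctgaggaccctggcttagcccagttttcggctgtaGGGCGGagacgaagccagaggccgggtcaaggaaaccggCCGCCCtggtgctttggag
Mgll: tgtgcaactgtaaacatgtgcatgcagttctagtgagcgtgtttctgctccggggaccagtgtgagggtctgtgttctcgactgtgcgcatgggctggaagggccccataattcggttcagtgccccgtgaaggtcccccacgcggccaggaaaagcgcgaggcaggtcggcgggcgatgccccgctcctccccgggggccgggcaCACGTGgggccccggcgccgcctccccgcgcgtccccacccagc
The Faah window held 2 GC boxes and no CACGTG, and the Mgll window shown 1 CACGTG and no GC box. The window before the other RefSeq start of Mgll (chr6:88724454-88724703), with 74.8% G and C, held 1 GC box and no CACGTG. A GC box was present in 32.7% and CACGTG in 6.02% of the same windows before all 32851 RefSeq starts. None of the 3 windows held TATAAA, present in 12.4% of all windows. The Mgll window shown was richer in G and C (68.0%) than that of Faah (55.6%), the median of all windows being 52.4%. RefSeq windows were found for 7 of the 8 genes.

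Across the 13 libraries, after removal of the group means, the 8 genes were compared in pairs. Of the 28 pairs, 16 correlated positively, and 0 passed a Benjamini-Hochberg adjusted p of 0.05 in a permutation test within groups. The largest correlation was negative, between Pla2g7 and Pla2g15 (Pearson r = -0.58, permutation p = 0.039, adjusted 0.49; Spearman rho = -0.65, permutation p = 0.021, adjusted 0.45). It was -0.44 without the 2 libraries farthest from the median of Pla2g7 and -0.45 with the runs removed as well. The largest positive r was that of Faah and Abhd6 (0.55, permutation p = 0.0805, adjusted 0.49). The largest positive rho was that of Pla2g6 and Dagla (0.62, permutation p = 0.034, adjusted 0.45). Mgll and Dagla gave an r of 0.48 (permutation p = 0.11, adjusted 0.49) and a rho of 0.25 (permutation p = 0.42, adjusted 0.68), and r fell to -0.05 without the 2 libraries farthest from the median of Mgll, on which this relation therefore rested; over all 13 libraries with the runs removed it was 0.65.

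Of 80 correlations of the 8 genes with 10 marker scores, 0 passed after adjustment, and the 14 with an r farthest from 0 are given as a description. In each case the value of r without the 2 farthest libraries comes first and that with the runs removed second. Dagla varied with inhibitory neuron genes (r = 0.80, permutation p = 0.0013, adjusted 0.061; rho = 0.78, permutation p = 0.0051, adjusted 0.084) and against choroid plexus genes (r = -0.78, permutation p = 0.0023, adjusted 0.061; rho = -0.80, permutation p = 0.0020, adjusted 0.080), with values of 0.75 and 0.77 for the former and -0.68 and -0.79 for the latter. Its correlation with excitatory neuron genes was close to that with inhibitory ones (r = 0.72, permutation p = 0.0090, adjusted 0.091; rho = 0.77, permutation p = 0.0053, adjusted 0.084), with values of 0.74 and 0.79. With endothelial genes it was negative (r = -0.65, permutation p = 0.020, adjusted 0.13; rho = -0.66, permutation p = 0.021, adjusted 0.20), with values of -0.39 and -0.65. Choroid plexus genes summed to 86.1 to 1922 CPM in controls and 68.7 to 3182 CPM in knockouts, with 0 of 10 past the threshold and none at 0. Pla2g7 varied with homeostatic microglial genes (r = 0.77, permutation p = 0.0020, adjusted 0.061; rho = 0.60, permutation p = 0.028, adjusted 0.20), with values of 0.76 and 0.34. It also varied with genes of plaque-associated microglia (r = 0.70, permutation p = 0.015, adjusted 0.11; rho = 0.62, permutation p = 0.061, adjusted 0.30), with values of 0.57 and 0.41. With myelin genes Pla2g7 gave an r of 0.67 (permutation p = 0.012, adjusted 0.095; rho = 0.64, permutation p = 0.026, adjusted 0.20), with values of 0.61 and -0.23, so that relation did not hold once the runs were removed. Pla2g4a varied with endothelial genes (r = 0.72, permutation p = 0.0089, adjusted 0.091; rho = 0.69, permutation p = 0.013, adjusted 0.18), with values of 0.76 and 0.79. Pla2g6 varied with excitatory neuron genes (r = 0.71, permutation p = 0.0091, adjusted 0.091; rho = 0.60, permutation p = 0.040, adjusted 0.23), with values of 0.58 and 0.76. It varied against striatum genes (r = -0.77, permutation p = 0.0037, adjusted 0.073; rho = -0.76, permutation p = 0.0045, adjusted 0.084), with values of -0.53 and -0.73. Faah did so too (r = -0.71, permutation p = 0.012, adjusted 0.095; rho = -0.82, permutation p = 0.0011, adjusted 0.080), with values of -0.89 and -0.72. Against septum genes Faah varied as well (r = -0.73, permutation p = 0.0052, adjusted 0.083; rho = -0.66, permutation p = 0.018, adjusted 0.20), with values of -0.52 and -0.72, and Mgll with myelin genes (r = 0.65, permutation p = 0.025, adjusted 0.15; rho = 0.56, permutation p = 0.058, adjusted 0.30), with values of 0.73 and 0.69. Abhd6 varied with genes of plaque-associated microglia (r = 0.65, permutation p = 0.042, adjusted 0.24; rho = 0.54, permutation p = 0.084, adjusted 0.37), with values of 0.33 and 0.53. The part of these cell types in the group differences was not tested. The covariates given above cannot separate it from genotype where a score, such as that of the septum, itself differed between the groups.

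**Figure D5:**
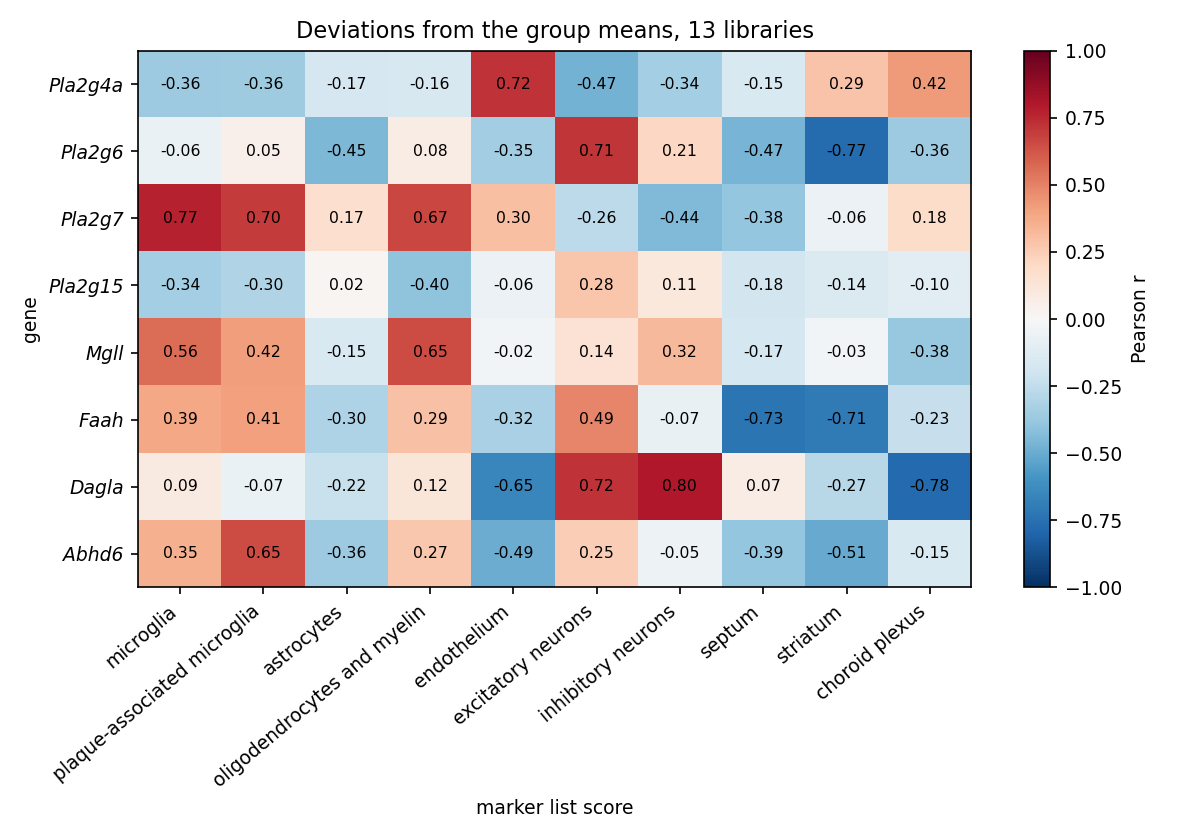
Pearson correlation, over 13 libraries after removal of the group means, of each lipase gene (rows) with the mean log2 CPM of each marker list (columns), from -1 in blue to 1 in red. The extremes are Dagla with inhibitory neuron genes at 0.80 and with choroid plexus genes at -0.78; 0 of the 80 passed after adjustment.

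The single genes most like each lipase were found among 11606 named genes with a mean of at least 5 CPM, by the same correlation over the 13 libraries, as a description of libraries that share depth and tissue composition. For Pla2g7 they were Nop56 (r = 0.96, rho = 0.90), a small nucleolar RNA-binding protein gene, and Cd68 (r = 0.94, rho = 0.92), a lysosomal glycoprotein gene of macrophages and microglia. For Pla2g4a they were Foxc1 (r = 0.87, rho = 0.81), a forkhead transcription factor gene, and Pskh1 (r = 0.86, rho = 0.82). Dagla was nearest to Slitrk5 (r = 0.94, rho = 0.94), a synaptic adhesion gene, and Zdhhc23 (r = 0.94, rho = 0.91), and Faah to Coq8a (r = 0.93, rho = 0.95), which serves coenzyme Q synthesis, and Hs3st4 (r = 0.91, rho = 0.84). The nearest to Mgll were Scn3a (r = 0.89, rho = 0.69), a sodium channel gene, and Ssu72 (r = 0.88, rho = 0.59). Those of Pla2g6 were Hrh3 (r = 0.92, rho = 0.70), the histamine H3 receptor gene, and Pik3r2 (r = 0.87, rho = 0.80). Abhd6 paired with Rnf149 (r = 0.92, rho = 0.82) and Ankrd34a (r = 0.89, rho = 0.63), and Pla2g15 with Pde3a (r = 0.88, rho = 0.91) and Ccdc120 (r = 0.87, rho = 0.74).

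Other genes of the pathway were counted by list. Of 36 further genes of phospholipases A and related lipid enzymes or proteins, 24 passed the count filter, and 0 rose and 0 fell in edgeR. Of the 24, 1, Plaat1, had an unadjusted p under 0.05, where 12.5% of all genes did. The median log2 fold change was -0.01, against -0.00 for all genes. Plaat1, a phospholipid-metabolising acyltransferase gene listed under its older symbol Hrasls, had 27.4 ± 4.1 CPM across controls (SD, n = 6) against 23.7 ± 2.24 CPM across knockouts (SD, n = 7) (log2 fold change -0.21, adjusted p = 0.36 in edgeR). Of the 6 controls, 5 were above every knockout and 1, at 20.7 CPM, was below every knockout. Within the runs Plaat1 differed by 0.20, -0.27 and -0.37, so the first run, with 5 knockouts and 1 control, had the other sign. Without control replicate 1, the only control of that run, the log2 fold change of Plaat1 was -0.27. It was -0.13 with the runs as a term and -0.06 with the septum score as a covariate. Plaat3 (-0.09), Lipe (0.20), the hormone-sensitive lipase gene, and Pnpla8 (0.07), a mitochondrial phospholipase gene, followed. Of the secreted enzymes, Pla2g1b and Pla2g2e had no read in any library, which with a floor of 3 reads over all libraries allows up to 0.0157 CPM.

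Among 16 tested genes listed for endocannabinoid synthesis and breakdown, 0 rose and 0 fell. The list includes carriers and phosphatases as well as enzymes of the pathway. Of the 16, 3 higher, among them Ptpn22 and Napepld, and 1 lower, Fabp5, had an unadjusted p under 0.05 (5.23% and 7.25% of all genes). The median log2 fold change was -0.02. Napepld, whose enzyme makes anandamide from a phospholipid precursor, had 45.9 ± 4.63 CPM across controls (SD, n = 6) against 53.2 ± 5.61 CPM across knockouts (SD, n = 7), all 7 above the control median (log2 fold change 0.21, SE 0.075, adjusted p = 0.26 in edgeR). Within the runs Napepld differed by 0.01, 0.31 and 0.30. Ptpn22, a phosphatase gene of immune cells, was near the detection limit at 6 to 34 reads per library, with 0.80 ± 0.25 CPM across controls (SD, n = 6) against 1.501 ± 0.307 CPM across knockouts (SD, n = 7). Its groups did not overlap, and the log2 fold change was 0.89 (SE 0.24, adjusted p = 0.16 in edgeR, and between 0.083 and 0.73 over the alternatives that gave one); with the septum score as a covariate it was 0.61. The fatty acid carriers Fabp5 (-0.20, adjusted p = 0.33) and Fabp3 (-0.16, adjusted p = 0.41) were the lower genes with the smallest p.

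Cannabinoid receptors and partners gave 0 calls among 7 tested genes, with a median log2 fold change of -0.03. Cnr1, the neuronal receptor, was at 258 ± 37.2 CPM across controls (SD, n = 6) against 261 ± 13.7 CPM across knockouts (SD, n = 7); it was named after its values were seen. Cnr2, the receptor of immune cells, had 5 to 26 reads per library and gave a log2 fold change of -0.47 with an SE of 0.28 (adjusted p = 0.52 by edgeR), and Pparg was at -0.22, Ppara at 0.24 and Sgip1 at 0.07. Of 18 phospholipase C genes and receptors that drive them, 0 passed, 1 higher and 2 lower had an unadjusted p under 0.05 (5.23% and 7.25% of all genes), and the median was 0.01. Plcb4 was at -0.36 (SE 0.11, adjusted p = 0.21), Plch1 at -0.32, Plch2 at 0.13 and Chrm1, the muscarinic M1 receptor gene, at 0.14 (SE 0.051, adjusted p = 0.26). Within the runs Plcb4 differed by -0.01, -0.60 and -0.49, and Chrm1 by -0.03, 0.20 and 0.27. With the septum score as a covariate Plcb4 was at -0.07, Plch1 at -0.07 and Chrm1 at 0.08. Of 23 genes that re-esterify or oxidise arachidonic acid, 0 passed in edgeR. In DESeq2, where 1.42% of the genes given an adjusted p passed, 1 did, the targeted gene Lpcat3. In edgeR 2 higher and 1 lower had an unadjusted p under 0.05 (5.23% and 7.25% of all genes). The lower one was again Lpcat3, and the median was -0.03. Ptgs2, the inducible cyclooxygenase gene, was at 0.24 (SE 0.083, adjusted p = 0.25 in edgeR), Acsl3 at 0.11 and Cyp2j6 at -0.15. Within the runs Ptgs2 differed by 0.22, 0.09 and 0.10, and its value was 0.15 with the runs as a term and 0.13 with the myelin score as a covariate.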

How the data were processed

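RNA from 13 hippocampus samples (7 knockout, 6 control) was made into libraries with the SMART-Seq mRNA LP kit, per the labels' protocols. The deposited table holds whole-number read counts per Ensembl gene, not normalized. Per the submitters' processing notes, the build was GRCm39 and the tools were featureCounts 2.0.3, STAR 2.7.10a, DESeq2 1.36.0 and R 4.2.0, with no role stated. The strand setting, the annotation and the handling of multimapped reads were not given in those sources. Columns were matched to samples by the number in the title. Symbols matched for 52073 of 56980 genes, which held 99.69% of counts. Chromosomes, lengths, GC content and the exonic bases shared with antisense genes come from GENCODE M21 (GRCm38), with no coordinates printed from it.

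Groups were compared across all genes by the quasi-likelihood test of edgeR 4.0.16 (R 4.3.3) after TMM scaling and filterByExpr. No covariate entered. The p-values of 17549 genes were adjusted by Benjamini-Hochberg and called at 0.05, a procedure tested on simulated data. The SE of an edgeR log2 fold change was derived from the test, as its absolute value divided by the square root of the F statistic. Confidence intervals were built from that SE with a t quantile. Intervals cover the spread between samples at this depth. Single genes were also tested by exact permutation over all relabellings on log2 CPM (prior count 2). Correlations used 100000 permutations within groups (scipy 1.17.1). The alternatives were DESeq2 1.42.0, other scalings and count filters, run and marker-score covariates, removal of length and GC trends (lowess, span 0.4), and omission of libraries. The 8 genes and all lists were chosen with earlier results of these data known. Named genes are the 8, Lpcat3, up to 2 per direction and list with the smallest p, and the 2 genes most like each of the 8; Cnr1 and the Faah to Mgll ratio were picked after their values were seen. One list name, Crip1a, matched no gene.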

Additional observations from a re-analysis of the deposited data

How the results depend on the processing

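Over 24 alternatives none of the 8 lipase genes passed the threshold, with adjusted p from 0.175 to 0.995, while the count over all genes was less stable: 4 genes passed in edgeR, against 181 in DESeq2, 66 with no count filter, 1 at a mean count of at least 50 and 78 with the choroid plexus score as a covariate, and 3 to 80 when a library was left out, 80 being without control replicate 1 and 7 without knockout replicate 3. Faah, Mgll and Pla2g15 kept their sign in all 24, with log2 fold changes of 0.02 to 0.15, -0.15 to -0.03 and 0.03 to 0.13. The sign of the other 5 genes turned in 9 values, each with an unadjusted p of 0.4542 or more in edgeR. The cause was not tested. With the runs as a term Pla2g4a was at -0.0073, Pla2g6 at -0.0344 and Pla2g7 at 0.0285. With the septum score Pla2g6 was at -0.0822 and Abhd6 at -0.0203, and with the myelin score Pla2g7 was at 0.0295. Without samples 4301 to 4307 Pla2g7 was at 0.0081 and Dagla at -0.041, and with 1 library left out Pla2g6 ranged from -0.0307 (without control replicate 2) to 0.0631 (without control replicate 1). None of the 20 named pathway genes changed sign in 476 values. They were picked for the smallest p in the same data, so their kept sign is no independent check. The 5 values that newly passed were all of Lpcat3, the targeted gene. No paired analysis was possible because the labels give the groups no shared replicate numbers, and those used here only count samples within a group. At 71 to 170 reads per library Pla2g4a had the widest interval of the 8.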
